A study of Mus musculus with 9 samples.

Results

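The genes described here are 46 antiviral interferon-stimulated genes, among them the sensors of viral nucleic acids, the IFIT, OAS, Mx and IFITM families and the enzymes that attach the ubiquitin-like protein ISG15. They were chosen by gene symbol from a list of names, with guanylate-binding proteins, Ifi200 genes, Schlafen genes and MHC genes left out, and all 46 were among the 22376 genes of the deposited files. The list was made with earlier results of these data known, so counts of its genes beside all tested genes are a description and no test. Each of the 46 also passed the filter on low values that left 13743 genes for testing, and none of them passed only because of 1 group, since every one had exonic reads in all 9 libraries. RNA was sequenced from mouse macrophages raised from bone marrow with macrophage colony-stimulating factor (M-CSF). Marrow of healthy wild-type C57Bl/6 mice was grown for 1 week in bags with 10 ng/ml recombinant M-CSF. The cells were then washed free of M-CSF and plated at 50000 per well for 48 h. In the first group the wells held a PD-L1 antibody (BioXcell, BE0101) at 100 µg/ml, in the second an isotype-matched control antibody (BioXcell, BE0090) at the same concentration, and in the third no antibody. Each group had 3 libraries, here called PD-L1 antibody 1 to 3, isotype antibody 4 to 6 and untreated 7 to 9. Whether wells of a group held cells of different mice or cultures is not in the labels, so a p-value here reflects the spread among samples that may be technical repeats.

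Interferon-stimulated genes are switched on when type I or type III interferon binds its receptor. The receptor's kinases JAK1 and TYK2 phosphorylate STAT proteins, which join IRF9 and bind the interferon-stimulated response element in promoters, while interferon gamma acts through JAK1 and JAK2 at the gamma-activated site. Macrophages make type I interferon and respond to it, and their unstimulated level of these genes is known to depend on a low constant output of interferon beta.

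Promoter sequence was taken from RefSeq (assembly GRCm38.p6) to show the element through which these genes are known to be induced. Of the 46 genes, 35 had a RefSeq promoter whose start site lay within 100 bases of the transcript start in the files. The response element core was searched as TTTCNNTTTC, or GAAANNGAAA when read from the other strand, in the 250 bases before and 50 bases after the start site, counting overlapping matches separately. The core was present in 15 of the 35 promoters (42.9%), against 336 of 9970 promoters of tested genes (3.37%) and 3.44% of all 32851 promoters in the table. It was present more than once in 8 of the 35. The gamma-activated site TTCNNNGAA, which reads the same on both strands, was present in 8 of the 35 (22.9%), against 6.98% of the promoters of tested genes. A stretch of 70 bases is shown for the 5 genes with the largest rises among those with a match before the start site, and for Ifitm2, which rose least among them; capitals mark the core.
Rsad2: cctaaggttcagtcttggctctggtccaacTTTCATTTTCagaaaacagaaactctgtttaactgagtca
Isg15: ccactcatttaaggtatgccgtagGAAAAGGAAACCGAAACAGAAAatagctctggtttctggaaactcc
Ifit1: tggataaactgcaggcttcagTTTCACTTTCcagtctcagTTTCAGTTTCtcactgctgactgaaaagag
Ddx60: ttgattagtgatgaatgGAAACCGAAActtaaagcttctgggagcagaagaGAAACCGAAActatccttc
Bst2: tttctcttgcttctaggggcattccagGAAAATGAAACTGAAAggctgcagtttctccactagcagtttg
Ifitm2: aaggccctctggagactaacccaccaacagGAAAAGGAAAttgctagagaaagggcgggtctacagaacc
The sequences are written 5′ to 3′ along each gene's own strand. They lie at chr12:26456533-26456602 on the minus strand (Rsad2), chr4:156200851-156200920 minus (Isg15), chr19:34640764-34640833 plus (Ifit1), chr8:61928017-61928086 plus (Ddx60), chr8:71537560-71537629 minus (Bst2) and chr7:140955968-140956037 minus (Ifitm2). The Isg15 stretch holds 3 overlapping matches, those of Ifit1 and Ddx60 hold 2 separate ones each, that of Bst2 holds 2 overlapping ones, and those of Rsad2 and Ifitm2 hold 1 each. A match is a description of letters and does not show that a factor binds there.

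The macrophage markers were present in every library, with the summed level of the 8 markers at 21510 to 25260 CPM with the PD-L1 antibody, 19850 to 23300 with the isotype antibody and 17710 to 23490 untreated, and none was at 0. Single markers moved with the PD-L1 antibody: 3 of the 8 rose (Adgre1, Fcgr1 and Itgam) and 1 fell (Cd68) against the isotype antibody. In that comparison 18.2% of all tested genes rose and 18.2% fell. Adgre1, which encodes the surface receptor F4/80, was at 4028 to 4158 CPM with the PD-L1 antibody, 1537 to 1872 with the isotype antibody and 1475 to 1997 untreated. The part of these changes in the results on the 46 genes was not tested. CPM here are exonic read equivalents (reads' worth of exon coverage) per 1000000 of a library's scaled total. Before scaling the totals ran from 23554320 to 40116467 per library, so that genes of this set, at 9.59 CPM or more in every library, were well covered. Of all tested genes, 36.4% differed between the PD-L1 antibody and the isotype antibody, 42.4% between the PD-L1 antibody and untreated wells, and 0.00728% (1 gene) between the isotype antibody and untreated wells. Those are calls by limma's moderated test with a Benjamini-Hochberg adjusted p under 0.05, and "rose" and "fell" below refer to them. PD-L1 antibody 2 was read in lane 4 according to its deposited name and the other 8 libraries in lane 1. Untreated 7 stood apart from untreated 8 and 9: with it left out, 2295 of 13988 genes (16.4%) differed between the isotype antibody and untreated wells.

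With the PD-L1 antibody, 44 of the 46 genes rose against the isotype antibody and none fell, where 18.2% of all tested genes rose. The genes that did not pass were Oas2 and Trim25. The median log2 fold change of the 46 was 0.97, against -0.01 over all tested genes, and the single values ran from 0.12 (Trim25) to 2.32 (Rsad2) on the log2(CPM + 1) scale. For 22 of them the level at least doubled (called, with a log2 fold change of at least 1), as it did for 598 of the 13743 tested genes. In 44 of the 46 every PD-L1 antibody library was above every isotype antibody library, which held for 26.0% of all tested genes, and in none was every one below (26.1% of all tested genes). Without PD-L1 antibody 2, that is within lane 1, 43 genes rose and the median was 0.89. The 46 genes together took 2.26 to 2.72% of the exonic reads with the PD-L1 antibody, 1.14 to 1.42% with the isotype antibody and 1.16 to 1.48% in untreated wells. These are bulk libraries, in which fewer cells of a type and less RNA per cell cannot be told apart.

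**Figure D1:**
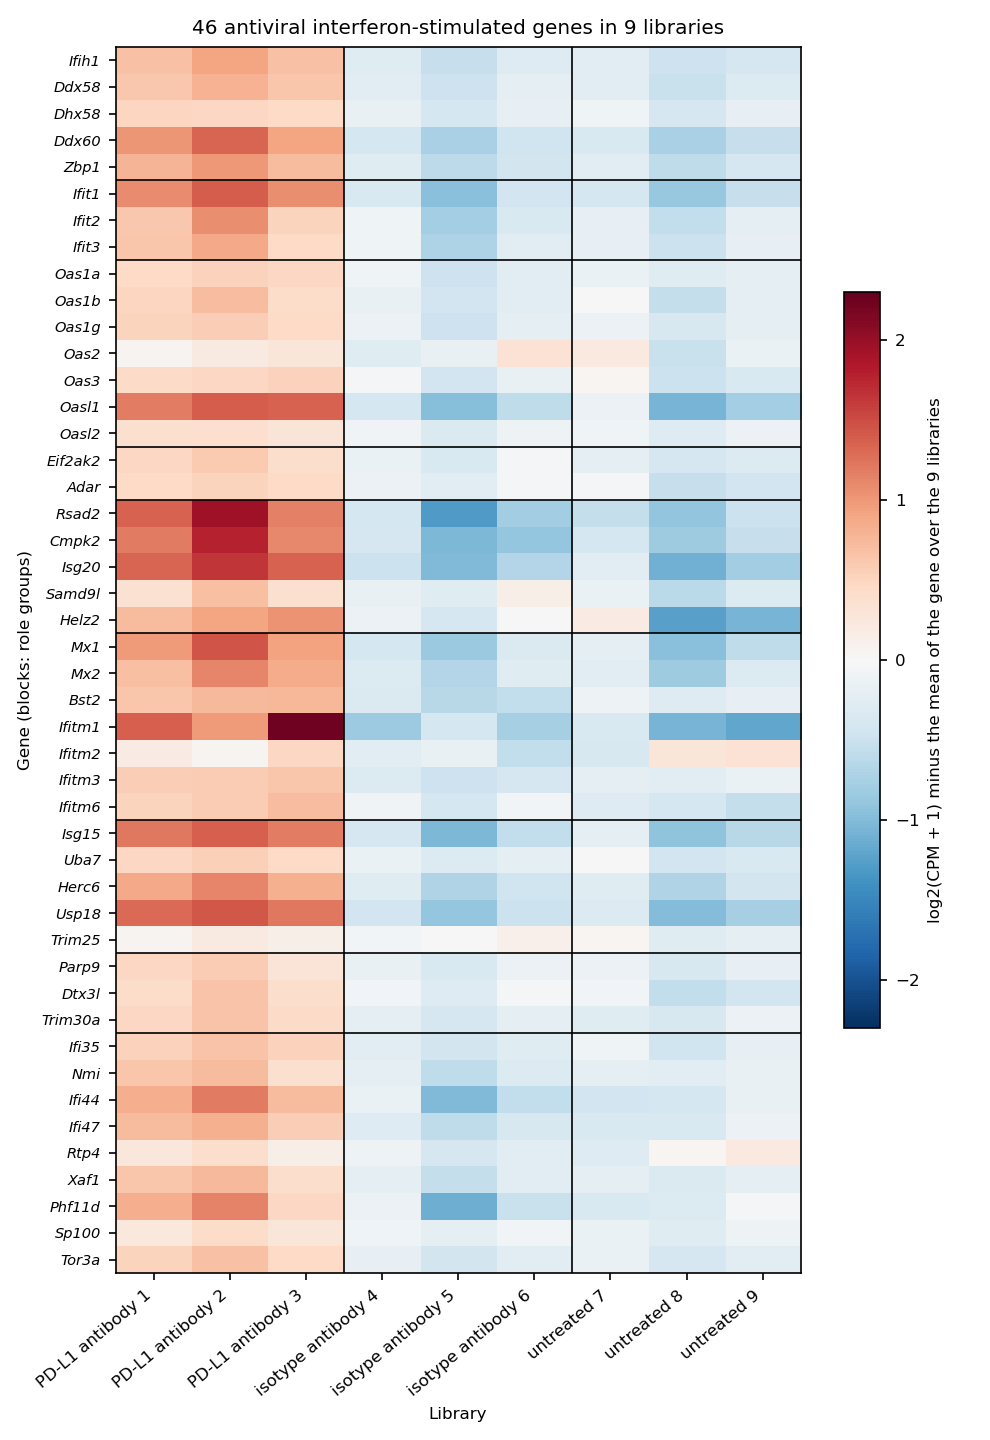
Heat map of the 46 genes (rows, in blocks by role) in the 9 libraries (columns); colour gives log2(CPM + 1) minus the gene's mean over the 9 libraries. The 3 PD-L1 antibody columns are red for nearly every gene and the other 6 blue, and Oas2, Ifitm2, Trim25 and Rtp4 are the rows with the least contrast.

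Against untreated wells, 43 of the 46 genes rose with the PD-L1 antibody and none fell, where 22.0% of all tested genes rose. Oas2, Ifitm2 and Rtp4 did not pass. The median log2 fold change was 0.89, with values from 0.16 (Ifitm2) to 2.40 (Ifitm1). In 43 of the 46 the PD-L1 antibody libraries were all above the untreated libraries, against 26.3% of all tested genes, and in none were they all below (24.9%). Both comparisons use the same PD-L1 antibody libraries, so their values are given side by side and are not independent of each other.

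The isotype antibody was compared with untreated wells to see how far antibody protein as such moved these genes. None of the 46 passed limma's test, and Bst2 alone had an unadjusted p under 0.05. Of all 13743 tested genes, 1748 had an unadjusted p under 0.05 in this comparison. No member was called by edgeR, DESeq2 or limma-voom either, with 2 to 5 members at an unadjusted p under 0.05 in those tools. They called 0.0 to 0.914% of all tested genes, and the share of all genes at that unadjusted p was not computed for them. The median log2 fold change was -0.00 and the values ran from -0.40 to 0.53. In 2 of the 46 genes, Bst2 and Ifitm3, all isotype antibody libraries were below all untreated ones, against 5.52% of all tested genes, and in none were they all above (7.64%). This comparison rests on untreated 7. Without it Adar, Dtx3l and Helz2 were higher and Ifitm2 and Rtp4 lower with the isotype antibody, which is 5 of 46 genes against the 16.4% of all tested genes called without that library.

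**Figure D2:**
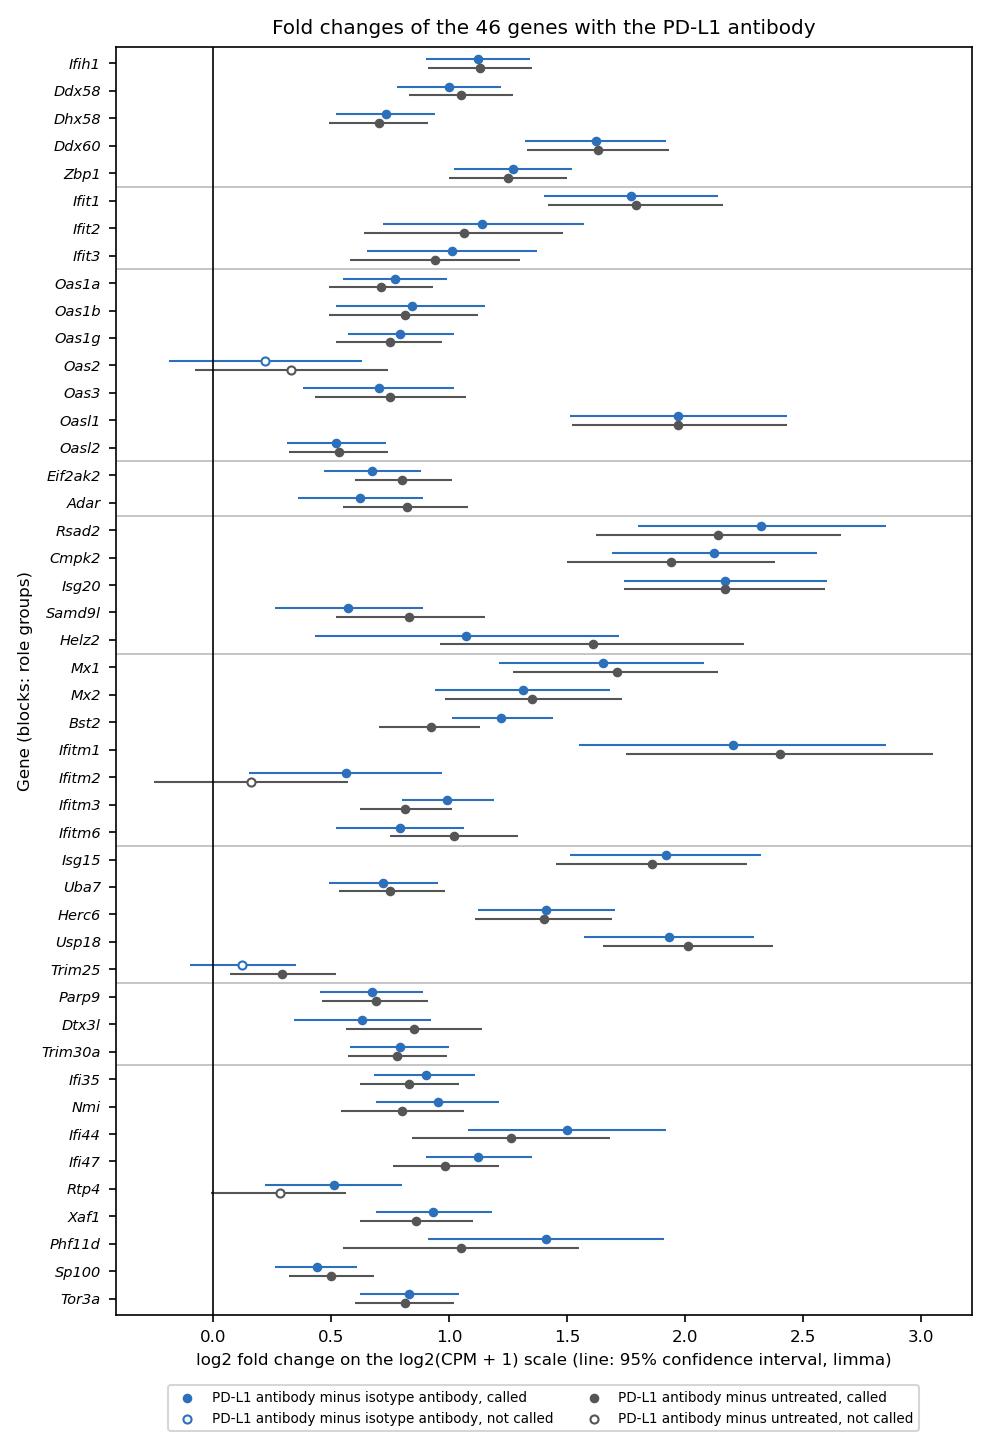
Log2 fold change of each gene with its 95% confidence interval for the PD-L1 antibody against the isotype antibody (blue) and against untreated wells (grey); open points did not pass the test. All points lie to the right of 0, the open ones are Oas2 in both comparisons, Trim25 against the isotype antibody, and Ifitm2 and Rtp4 against untreated wells.

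All 5 genes for cytosolic sensors of viral RNA and DNA rose in both comparisons. Ddx60, a helicase that assists RNA sensing, had the largest fold change of the group, with 148, 185 and 137 CPM with the PD-L1 antibody, 54.7, 42.9 and 52.7 with the isotype antibody and 56.7, 42.8 and 50.1 in untreated wells. The lowest PD-L1 antibody value was more than all 6 others, and its log2 fold change against the isotype antibody was 1.62 ± 0.14 (SE, adjusted p = 6.27e-06, limma). Ddx58, which encodes the RNA sensor RIG-I, took the most reads of the group, at 433, 494 and 438 CPM against 235, 204 and 242 and 235, 197 and 227. Its groups did not overlap either, and its log2 fold change against the isotype antibody was 1.00 ± 0.10 (SE, adjusted p = 1.91e-05, limma). Dhx58, which encodes the related regulator LGP2, changed least, from 178, 151 and 175 CPM with the isotype antibody to 282, 280.5 and 274 with the PD-L1 antibody (log2 fold change 0.73, adjusted p = 0.000129), and untreated wells had 188, 153 and 175. The 3 PD-L1 antibody libraries of Dhx58 lay closer together than those of any other member, with a coefficient of variation of 1.57%. Ifih1, which encodes the long-RNA sensor MDA5, had a log2 fold change of 1.12 and Zbp1, a sensor of left-handed nucleic acids, one of 1.27.

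The 3 IFIT genes, which lie in one cluster with other IFIT genes at chr19:34550694-34650009 and encode proteins that bind foreign RNA ends, rose in both comparisons. Ifit1 stood at 921, 1136 and 908 CPM with the PD-L1 antibody, 338, 222 and 317 with the isotype antibody and 325, 236 and 299 untreated. The groups were well apart, and its log2 fold change against the isotype antibody was 1.77 ± 0.17 (SE, adjusted p = 1.38e-05, limma). Ifit2, which took the most reads of the group, was at 1895, 2577 and 1748 CPM with the PD-L1 antibody, 1143, 715 and 966 with the isotype antibody and 1071, 826 and 1063 untreated. Its lowest PD-L1 antibody value was above the highest of the others, and its log2 fold change against the isotype antibody was 1.14 ± 0.19 (SE, adjusted p = 0.000845, limma). Ifit3 had the smallest change, from 886, 580.5 and 794 CPM to 1475, 1739 and 1307 (log2 fold change 1.01, adjusted p = 0.00067), with 834, 677 and 839 untreated. Of the 50-base stretches of the Ifit3 transcript 51.2% also occur in its neighbour Ifit3b, so reads of the pair cannot be separated fully; Ifit3b itself had a log2 fold change of 0.84.

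The 2′-5′-oligoadenylate synthetases make an antiviral messenger on sensing double-stranded RNA. Of the 7 OAS genes, 6 rose in both comparisons and Oas2 in neither. The Oas1b and Oas1g transcripts used here are non-coding RefSeq records, and which of the 7 give an active synthetase in these cells was not tested. Oasl1, a member without synthetase activity, had by far the largest fold change: 545, 634 and 616 CPM with the PD-L1 antibody against 181, 121 and 159 with the isotype antibody and 218, 114 and 139 untreated. Untreated 7 was the highest of the 6 comparison libraries and still below all 3 PD-L1 antibody ones, and its log2 fold change against the isotype antibody was 1.97 ± 0.21 (SE, adjusted p = 3.13e-05, limma). Oas3 took the most reads of the family, at 1301, 1336 and 1381 CPM against 930.2, 709 and 850.5 and 988, 676 and 752, and its log2 fold change against the isotype antibody was 0.70 ± 0.14 (SE, adjusted p = 0.00307, limma). Oas2, its neighbour, had 156, 174 and 182 CPM with the PD-L1 antibody, 123, 134 and 189.9 with the isotype antibody and 176, 105 and 135 untreated. Isotype antibody 6 was above all 3 PD-L1 antibody libraries, and untreated 7 was above PD-L1 antibody 1 and 2. The log2 fold change of Oas2 was 0.22 ± 0.19 (SE, 95% interval -0.19 to 0.63, adjusted p = 0.398, limma), and against untreated wells it was 0.33 (adjusted p = 0.183). Without untreated 7 the latter became 0.51 with an adjusted p of 0.0213. Oas1a, Oas1b, Oas1g and Oasl2 had log2 fold changes of 0.77, 0.84, 0.79 and 0.52 against the isotype antibody. Oas1a and Oas1g share 57.6% of the 50-base stretches of Oas1a, so their reads may have been exchanged; Oas1b, with 3.19% shared, had a similar fold change at a lower level per exon length (14.4 CPM per kb with the PD-L1 antibody, against 372.2 for Oas1a). The 5 genes Oas1a, Oas1b, Oas1g, Oas2 and Oas3 lie in one cluster at chr5:120730333-120907525.

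Eif2ak2, which encodes the translation-stopping kinase PKR, and Adar, which encodes the adenosine deaminase of double-stranded RNA, both rose modestly. Eif2ak2 went from 122, 107 and 132 CPM with the isotype antibody and 116, 103 and 109 untreated to 189, 206 and 181 with the PD-L1 antibody, and its log2 fold change against the isotype antibody was 0.67 ± 0.09 (SE, adjusted p = 0.000214, limma). Adar stood at 365, 383 and 368 CPM with the PD-L1 antibody, 243, 222 and 259 with the isotype antibody and 260.1, 184 and 196 untreated. The closest library to the PD-L1 antibody group was untreated 7, without overlap, and its log2 fold change against the isotype antibody was 0.62 ± 0.12 (SE, adjusted p = 0.00195, limma). The exons of Adar overlap those of Chrnb2 on the other strand over 16.8% of their length, and the strand used in counting is not given in the sources used here.

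The effectors of nucleotide and RNA metabolism held 3 of the 4 largest fold changes of the 46. Rsad2 encodes viperin, which makes a chain-terminating nucleotide, and its neighbour Cmpk2 encodes the mitochondrial kinase that supplies its substrate; the pair lies at chr12:26442743-26479837. Rsad2 had 1796, 2725 and 1567 CPM with the PD-L1 antibody, 528, 286 and 403 with the isotype antibody and 479, 372 and 498 untreated. PD-L1 antibody 2 was the highest of all libraries, and the lowest of its group was still well above the other 6, and its log2 fold change against the isotype antibody was 2.32 ± 0.24 (SE, adjusted p = 2.49e-05, limma). Cmpk2 followed the same order of libraries within the PD-L1 antibody group, at 1290, 1899 and 1199 CPM against 428, 273 and 301 and 422, 317 and 387, and its log2 fold change against the isotype antibody was 2.12 ± 0.20 (SE, adjusted p = 1.3e-05, limma). Isg20, an exonuclease that degrades viral RNA, was at 185, 228 and 188 CPM against 51.5, 35.6 and 45.0 and 60.2, 33.2 and 41.3. No library overlapped, and its log2 fold change against the isotype antibody was 2.17 ± 0.19 (SE, adjusted p = 8.95e-06, limma). Samd9l, an antiviral restriction factor, changed least of the group, from 314, 294 and 390.0 CPM to 452, 575 and 459 (log2 fold change 0.57, adjusted p = 0.00957), with 319, 231 and 284 untreated, and with scaling by total counts it did not pass (adjusted p = 0.0606).

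Helz2, a helicase first described as a nuclear receptor coactivator, was the least certain of that group. It had 849.5, 964 and 1047 CPM with the PD-L1 antibody, 465, 389 and 508 with the isotype antibody and 579.8, 214 and 242 untreated. Untreated 7 was above the 3 isotype antibody libraries and the other untreated wells were below them, while all PD-L1 antibody libraries were above all others. The log2 fold change against the isotype antibody was 1.07 ± 0.29 (SE, adjusted p = 0.0145, limma); without PD-L1 antibody 3 the adjusted p was 0.0515 and without isotype antibody 5 it was 0.0607. Against untreated wells it was 1.61 (adjusted p = 0.00123).

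All 7 genes for Mx GTPases and membrane restriction factors rose against the isotype antibody and 6 against untreated wells. Mx1 and Mx2, the genes of the Mx GTPase family, had log2 fold changes of 1.65 and 1.31. The Mx2 transcript used here is a non-coding RefSeq record. Whether either gene gives a working protein in these cells was not tested. Bst2, which encodes the virion tether tetherin, had the lowest adjusted p of all 46 genes: 889.8, 954 and 974 CPM with the PD-L1 antibody, 455, 368 and 388 with the isotype antibody and 525, 466 and 499.5 untreated. All 3 groups were apart, with the isotype antibody lowest, and its log2 fold change against the isotype antibody was 1.22 ± 0.10 (SE, adjusted p = 3.99e-06, limma). The IFITM genes, which encode membrane proteins that block virus entry and lie at chr7:140954839-141016892, split widely. Ifitm1 rose most, from 15.9, 22.0 and 16.8 CPM with the isotype antibody and 22.9, 13.5 and 12.2 untreated to 78.1, 58.9 and 142, and its log2 fold change against the isotype antibody was 2.20 ± 0.29 (SE, adjusted p = 0.000173, limma). Its PD-L1 antibody libraries were spread, with a coefficient of variation of 46.8%, the largest of the 46, and PD-L1 antibody 3 the highest. Ifitm3, the member with the highest level per exon length, had 1727, 1749 and 1808 CPM against 928, 835 and 891 and 997, 963 and 1046. Those 9 libraries were tight within groups, and its log2 fold change against the isotype antibody was 0.99 ± 0.09 (SE, adjusted p = 9.95e-06, limma). Ifitm6 had 21.2 to 24.2 CPM with the PD-L1 antibody and a log2 fold change of 0.79.

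Ifitm2 was the IFITM gene of the 46 that did not pass against untreated wells. It had 677, 614 and 818 CPM with the PD-L1 antibody, 501, 527 and 399.8 with the isotype antibody and 455, 720.3 and 743 untreated. The PD-L1 antibody libraries were above the isotype antibody ones, but untreated 8 and 9 were above PD-L1 antibody 1 and 2. The log2 fold change was 0.56 ± 0.19 (SE, adjusted p = 0.0362, limma) against the isotype antibody and 0.16 (adjusted p = 0.52) against untreated wells. The first did not pass in edgeR on the deposited read counts (adjusted p = 0.131) or without any 1 of PD-L1 antibody 1 and 3 and isotype antibody 4, 5 and 6 (adjusted p from 0.0531 to 0.134), and the second was -0.07 without untreated 7. Of the exon bases of Ifitm2, 40.9% are also annotated to Gm45717 on the same strand.

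**Figure D3:**
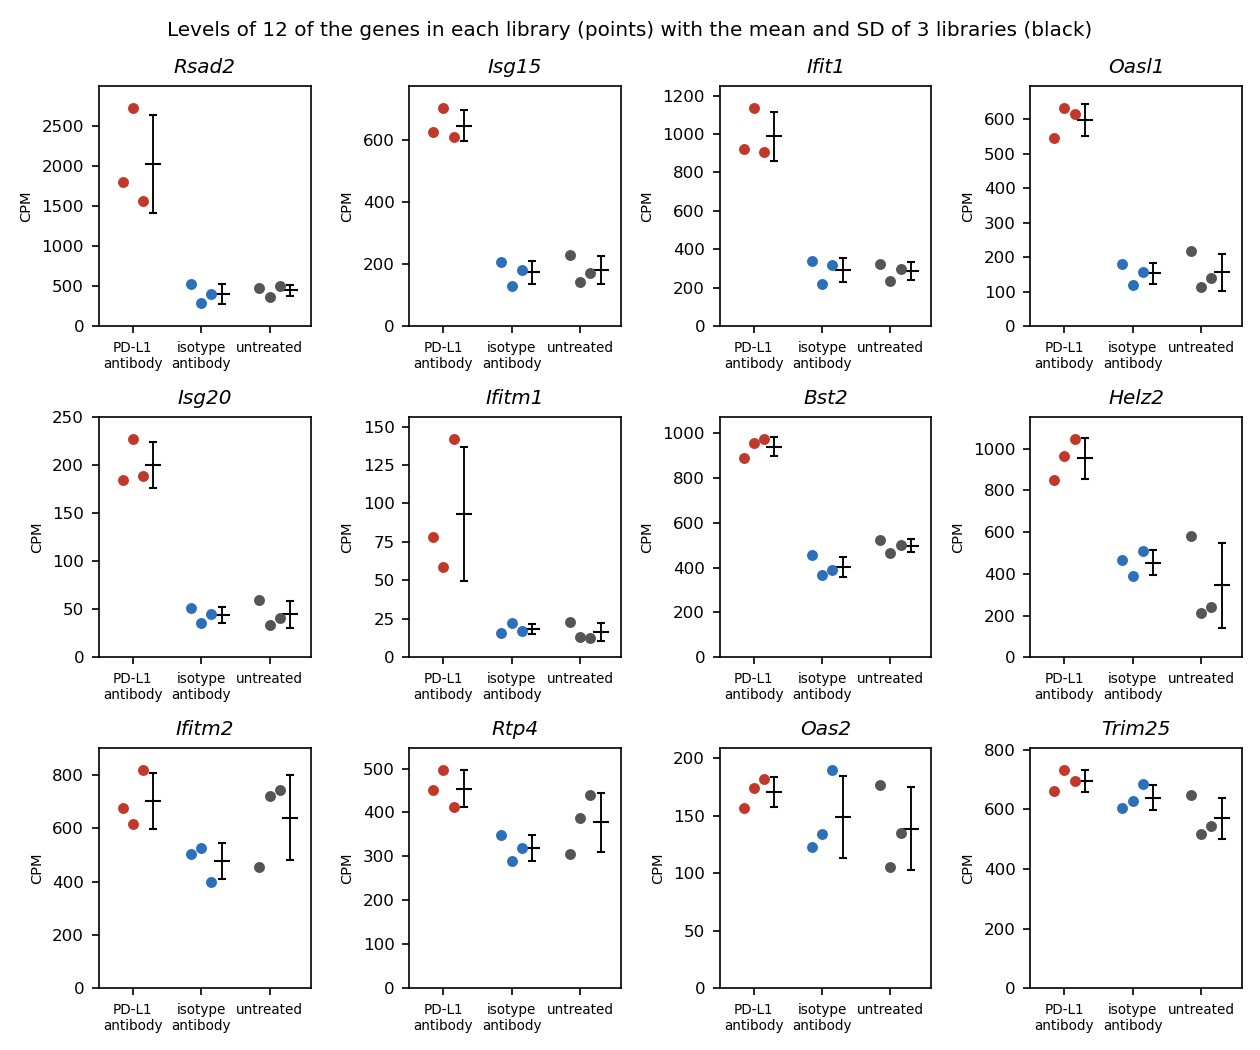
Level in CPM of 12 of the genes in each library (points, 3 per group) with the group mean and SD (black bars), each panel starting at 0. In the first 8 panels every PD-L1 antibody point is above all others, while in Oas2 and Trim25 the groups overlap and in Ifitm2 and Rtp4 the untreated wells reach the PD-L1 antibody points.

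ISG15 is a ubiquitin-like protein attached to other proteins by the enzymes encoded by Uba7 (activation) and Herc6 (the mouse ligase) and removed by that of Usp18, which also damps signalling at the type I interferon receptor. Isg15, Uba7, Herc6 and Usp18 rose in both comparisons. Isg15 stood at 628, 704 and 609.6 CPM with the PD-L1 antibody, 207, 132 and 182 with the isotype antibody and 231, 142 and 172 untreated. The groups were well apart, and its log2 fold change against the isotype antibody was 1.92 ± 0.19 (SE, adjusted p = 1.61e-05, limma). Usp18 had 362, 395 and 341 CPM against 107, 78.2 and 103 and 117, 72.8 and 85.4, the largest fold change of the group by a small margin, and its log2 fold change against the isotype antibody was 1.93 ± 0.16 (SE, adjusted p = 6.5e-06, limma). Uba7 and Herc6 had log2 fold changes of 0.72 and 1.41, and 23.8% of the 50-base stretches of Herc6 also occur in the overlapping model Gm45193. Ube2l6, the conjugating enzyme of the pathway and no member of the 46, rose by a log2 fold change of 0.41 (adjusted p = 0.0126), which did not pass without PD-L1 antibody 2 (adjusted p = 0.0503) or without isotype antibody 5 (0.0581).

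Trim25, a ubiquitin ligase that acts on RIG-I and is itself a target of ISG15, had the smallest log2 fold change of the 46 genes against the isotype antibody. It had 661, 733 and 696 CPM with the PD-L1 antibody, 606, 627 and 686 with the isotype antibody and 648, 518 and 546 untreated. Isotype antibody 6 was above PD-L1 antibody 1, and the PD-L1 antibody libraries were above all untreated ones. The log2 fold change was 0.12 ± 0.10 (SE, 95% interval -0.10 to 0.35, adjusted p = 0.382, limma) against the isotype antibody and -0.05 when libraries were scaled by total counts. Against untreated wells it was 0.29 (adjusted p = 0.0387), and it did not pass in 12 of 24 alternatives. Those include leaving out PD-L1 antibody 1, 2 or 3, isotype antibody 5 and untreated 8 or 9, with adjusted p from 0.0561 to 0.159.

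Parp9 and Dtx3l encode an ADP-ribosyltransferase and a ubiquitin ligase that work as a complex, and Trim30a encodes a ligase that limits inflammatory signalling. All 3 rose in both comparisons by similar amounts. Trim30a had 546, 619 and 531 CPM with the PD-L1 antibody, 341, 298 and 342 with the isotype antibody and 323, 305 and 357 untreated, and its log2 fold change against the isotype antibody was 0.79 ± 0.10 (SE, adjusted p = 8.66e-05, limma). Dtx3l had 538, 632 and 536 CPM against 388, 328 and 389 and 386, 271 and 297, without overlap, and its log2 fold change against the isotype antibody was 0.63 ± 0.13 (SE, adjusted p = 0.00346, limma). Parp9 had a log2 fold change of 0.67, and the exons of Parp9 and Dtx3l, which are transcribed from opposite strands, overlap over 458 bases.

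The remaining 9 interferon-induced genes all rose against the isotype antibody and 8 of them against untreated wells. Ifi44, which encodes a cytosolic antiviral protein, changed most: 266, 341 and 246 CPM with the PD-L1 antibody, 133, 72.5 and 100.1 with the isotype antibody and 108, 112 and 132 untreated. The PD-L1 antibody libraries were all above the rest, isotype antibody 5 was the lowest, and its log2 fold change against the isotype antibody was 1.50 ± 0.19 (SE, adjusted p = 0.000124, limma). Tor3a, a torsin of the endoplasmic reticulum, took the most reads of the 9, at 524, 583 and 503 CPM against 319, 274 and 309 and 328, 279.8 and 309, and its log2 fold change against the isotype antibody was 0.83 ± 0.10 (SE, adjusted p = 5.37e-05, limma). Sp100, a component of nuclear bodies, changed least, from 213, 199 and 219 CPM to 271, 307 and 278 (log2 fold change 0.44, adjusted p = 0.00149), with 205, 189 and 210.3 untreated. Although small, that difference exceeded the spread in every group. Ifi35 and Nmi, whose products form a complex, had log2 fold changes of 0.90 and 0.95, Xaf1, a pro-apoptotic factor, 0.93, the immunity-related GTPase gene Ifi47 1.12, and Phf11d 1.41.

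Rtp4, an interferon-induced receptor chaperone, was the member of this group that did not pass against untreated wells. It had 451, 497 and 413 CPM with the PD-L1 antibody, 349, 289 and 318 with the isotype antibody and 307, 387 and 439.8 untreated. Untreated 9 was within the PD-L1 antibody range and untreated 7 was within the isotype antibody range. The log2 fold change was 0.51 ± 0.13 (SE, adjusted p = 0.0106, limma) against the isotype antibody, with an adjusted p of 0.0509 without PD-L1 antibody 2 and 0.0532 without isotype antibody 5. Against untreated wells it was 0.28 (adjusted p = 0.114), and 0.39 (adjusted p = 0.0388) without untreated 9.

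The levels of the 46 genes differed far more between genes than between groups. Per kilobase of exon, the highest in untreated wells were Ifitm3 at 1546 CPM per kb, Ifitm2 at 1020 and Bst2 at 648.7, and the lowest were Oas1b at 8.10, Ddx60 at 8.32 and Mx2 at 9.27. With the PD-L1 antibody the order at the top became Ifitm3 (2718), Bst2 (1226), Ifitm2 (1121) and Isg15 (856). Rsad2 went from 119 to 536 CPM per kb between those groups. Among the 35 genes with a promoter sequence, the 15 with the response element core had a median log2 fold change of 1.00 against the isotype antibody (0.56 for Ifitm2 to 2.32 for Rsad2), and the 20 without it 0.94 (0.12 for Trim25 to 2.20 for Ifitm1). Those ranges overlap nearly throughout: Isg20, Cmpk2 and Oasl1 had no match in the window and rose as much as Isg15, which had 3.

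**Figure D4:**
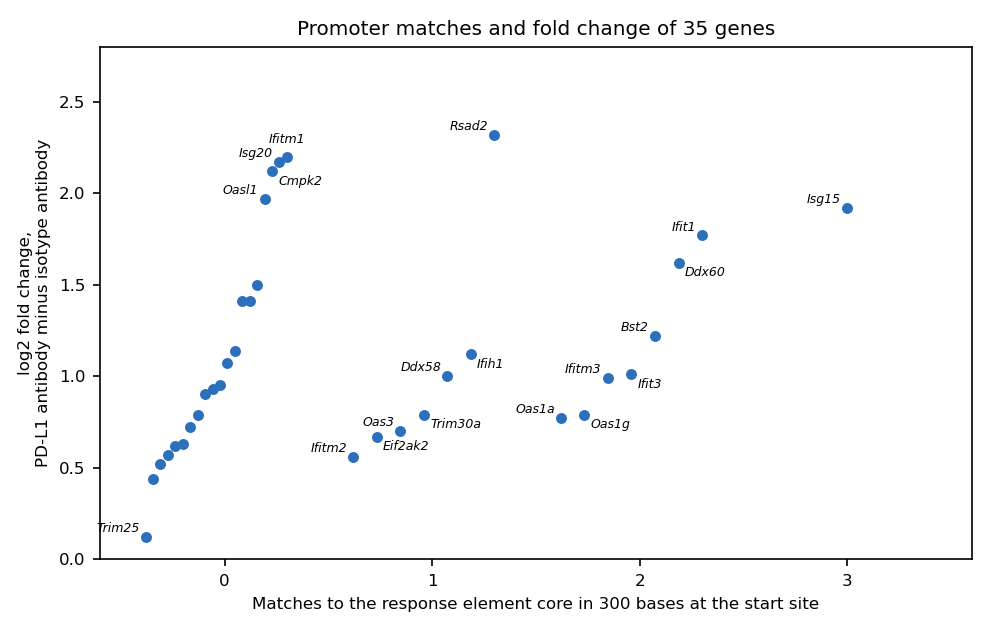
Log2 fold change of the PD-L1 antibody against the isotype antibody (vertical axis) by number of response element core matches in the 300 bases at the start site (horizontal axis; points are spread sideways within a number), for 35 genes. Genes with 0 matches span 0.12 to 2.20, and Isg15, with 3, lies at 1.92.

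The libraries of a group kept a common order over the 46 genes. PD-L1 antibody 2 was the highest of its group in 37 of the 46, which was so in 32.0% of all tested genes. PD-L1 antibody 2 was also the only library of lane 4, so its place in this order and the lane cannot be told apart. The members in which PD-L1 antibody 2 was the lowest were Ifitm1 and Ifitm2. Isotype antibody 5 was the lowest of its group in 42 of 46 (33.1% of all tested genes), the others being Oas2, Ifitm1, Ifitm2 and Trim25. Untreated 8 was the lowest of its group in 39 of 46 (28.5%), and untreated 7 the highest in 34 (41.1%). Summed over the 46 genes, the levels were 24830, 29170 and 24590 CPM with the PD-L1 antibody, 13680, 10880 and 12890 with the isotype antibody, and 13900, 11390 and 13060 untreated. The median coefficient of variation of the 46 was 9.41, 12.7 and 13.4% in those groups, against 6.99, 7.07 and 9.74% over the 8579 genes with a mean of at least 10 CPM.

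The ligands that induce these genes were next read from the same libraries. Ifnb1, which encodes interferon beta, was the only one of 19 interferon genes in the files that passed the filter, and it did so through its reads in the PD-L1 antibody libraries alone, so its values are given with no test. It had 2.08, 2.87 and 2.76 CPM with the PD-L1 antibody, 0.127, 0.0759 and 0.0546 with the isotype antibody and 0.154, 0.135 and 0 untreated. In reads this was 64.5 to 74.4 per library with the PD-L1 antibody, 2 to 4 with the isotype antibody, and 3.85, 4 and 0 untreated, so the groups do not overlap and the lower levels rest on a handful of reads. None of the other 18 interferon genes exceeded 0.409 CPM in any library. The 13 interferon alpha genes together had 1.21, 1.01 and 0.0368 CPM with the PD-L1 antibody, at most 0.236 with the isotype antibody and at most 0.623 untreated, and those ranges overlap.

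Of 12 genes for interferon receptor chains and their transducers, 8 rose against the isotype antibody and none fell. In that comparison 18.2% of all tested genes rose and 18.2% fell. Ifnar1 and Ifnar2, the chains of the type I receptor, had log2 fold changes of 0.73 and 0.47. Of the chains of the interferon gamma receptor, Ifngr2 rose by 0.62, and Ifngr1 had 118, 112 and 109.7 CPM with the PD-L1 antibody against 142, 157 and 135 with the isotype antibody and 119.8, 179.8 and 183 untreated. No Ifngr1 library of the PD-L1 antibody reached the isotype antibody range, but the log2 fold change of -0.35 had an adjusted p of 0.0765. It passed with total counts (-0.52, adjusted p = 0.00779), with upper quartile scaling (-0.41, adjusted p = 0.0378), with only the 2 groups in the fit (adjusted p = 0.00421) and without untreated 7 (adjusted p = 0.0015). Against untreated wells Ifngr1 fell by 0.48 on the log2 scale (adjusted p = 0.0184), a call lost without any 1 of PD-L1 antibody 2 and 3 and untreated 8 and 9 (adjusted p from 0.056 to 0.0755). Ifnlr1, the specific chain of the type III receptor, was at 1.30 CPM or less in every library, and its partner chain Il10rb was at 249 to 318 CPM over the 9 libraries.

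Among the transducers, Jak2 went from 95.7, 87.8 and 82.9 CPM with the isotype antibody and 96.2, 66.2 and 69.8 untreated to 289, 294 and 329 with the PD-L1 antibody, and its log2 fold change against the isotype antibody was 1.76 ± 0.13 (SE, adjusted p = 2.08e-06, limma). Stat2 had a log2 fold change of 1.19. The other subunits and kinases of the type I pathway had small log2 fold changes: Irf9 had 0.21 (adjusted p = 0.0364), Jak1 0.25 (adjusted p = 0.0142) and Tyk2 0.08 (adjusted p = 0.637). The Irf9 call was lost in 11 of 24 alternatives, including leaving out any 1 of PD-L1 antibody 1, 2 and 3, isotype antibody 5 and 6 and untreated 8 (adjusted p from 0.0553 to 0.145). The Jak1 call was lost without PD-L1 antibody 1 or 2 or isotype antibody 5 (adjusted p from 0.0513 to 0.0535), and with total-count scaling the log2 fold changes were 0.04 (Irf9), 0.07 (Jak1) and -0.10 (Tyk2).

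Of 15 genes that lead to interferon production, 5 rose and 2 fell against the isotype antibody, where 18.2% of all tested genes rose and 18.2% fell. Tlr3, the endosomal receptor of double-stranded RNA, rose by 1.24, the kinase genes Ikbke and Tbk1 by 1.11 and 0.60, the transcription factor gene Irf7 by 1.06 and the adaptor gene Myd88 by 0.64. Irf7 stood at 2287, 2303 and 2434 CPM with the PD-L1 antibody against 1331, 997 and 1065 with the isotype antibody and 1419, 1262 and 1438 untreated, without overlap. The genes that fell were Tmem173, which encodes the DNA-pathway adaptor STING (log2 fold change -0.44), and Ticam1, which encodes the TLR3 adaptor TRIF (-0.33). Against untreated wells the list had 6 higher and 4 lower (22.0 and 20.5% of all tested genes).

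Of 9 genes listed as limiting interferon production or signalling, 7 rose in both comparisons, Usp18 among them. The share of all tested genes that rose was 18.2% against the isotype antibody and 22.0% against untreated wells. Nlrc5, 1 of the 7, was close to the threshold against the isotype antibody (adjusted p = 0.0499, limma). Socs3 rose most, from 24.5, 24.8 and 20.8 CPM with the isotype antibody and 23.3, 28.9 and 26.6 untreated to 443, 420.4 and 654 with the PD-L1 antibody, and its log2 fold change against the isotype antibody was 4.35 ± 0.15 (SE, adjusted p = 1.3e-08, limma). Socs1, which blocks JAK kinases, rose by 1.92 and Trex1, a DNA exonuclease, by 0.64. A further list of 6 tested genes held partners of the ISG15 and OAS pathways, and also Ifi27 and its neighbour Ifi27l2a, which are no such partners. Of the 6, 1 rose (Ube2l6) and 1 fell (Ifi27) against the isotype antibody, which is near the share of all tested genes (18.2% in each direction). Ifi27, an interferon-inducible mitochondrial protein, fell by 0.48 on the log2 scale.

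**Figure D5:**
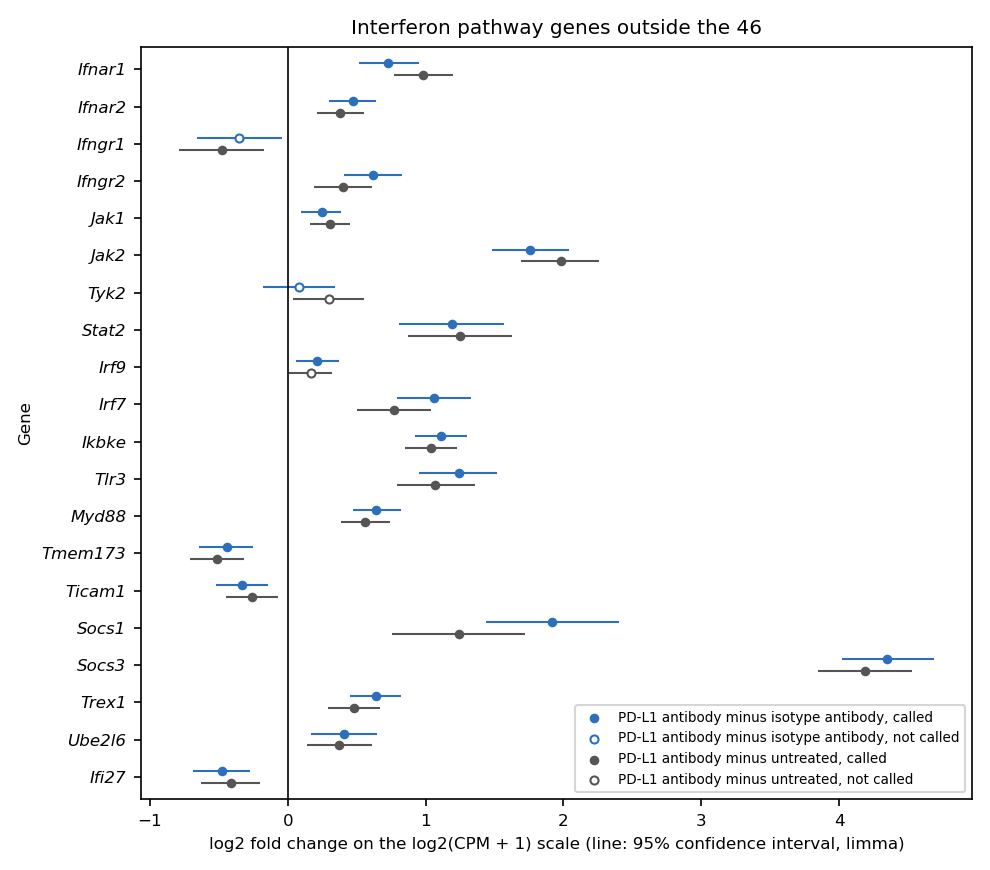
Log2 fold change with its 95% confidence interval of 20 interferon pathway genes outside the 46, for the PD-L1 antibody against the isotype antibody (blue) and against untreated wells (grey); open points did not pass the test. Socs3 lies farthest right at 4.35 and 4.19, and Ifngr1, Tmem173, Ticam1 and Ifi27 lie left of 0 in both.

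Close paralogues outside the 46 were higher in 8 of 14 tested cases against the isotype antibody and lower in none. In that comparison 18.2% of all tested genes were higher and 18.2% lower. Ifit1bl1 had 842, 1119 and 654 CPM with the PD-L1 antibody, 222, 95.2 and 170.3 with the isotype antibody and 226, 104 and 168 untreated, with a log2 fold change of 2.47. Phf11a and Phf11b rose by 1.56 and 1.50 and Trim30d by 0.98. Other interferon-inducible families rose as well: 17 of 18 guanylate-binding proteins and immunity GTPases (median log2 fold change 1.63), 7 of 9 Schlafen genes (0.62) and 3 of 5 tested genes of the Ifi200 family and Aim2 (0.53). The same 18.2% of all tested genes stands beside these counts. No test of a difference between these families and the 46 genes was made. Between the isotype antibody and untreated wells limma called no gene of any pathway list or family named here. A list had 0 to 3 genes at an unadjusted p under 0.05, the most being 3 of the 12 receptor and transducer genes. Of all 13743 tested genes, 1748 were at that unadjusted p.

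Markers of other cells that marrow cultures can hold were read beside these results. Their counts stand beside 18.2% of all tested genes rising and 18.2% falling against the isotype antibody. Against untreated wells those shares were 22.0 and 20.5%. Plasmacytoid dendritic cells are known as strong interferon producers, and their 7 markers summed to 89.9 to 102.9 CPM with the PD-L1 antibody, 98.5 to 130.9 with the isotype antibody and 99.2 to 161.1 untreated. Most of each sum was Tcf4, at 77.47 to 92.45, 85.19 to 108.9 and 77.93 to 143.5 CPM in those groups. Siglech was at 0.590 to 3.20, 4.86 to 10.3 and 4.70 to 6.78 CPM, and Cox6a2 at 3.35 to 4.09, 0.920 to 2.03 and 2.24 to 3.14. Of the 6 tested, 1 rose and 3 fell against the isotype antibody, and Klk1 never exceeded 1 CPM. The 9 neutrophil and precursor markers summed to 353.1 to 495.9 CPM with the PD-L1 antibody, 679.1 to 1272 with the isotype antibody and 510.7 to 708.6 untreated, of which 4 of 8 tested fell and none rose against the isotype antibody. The 7 conventional dendritic cell markers summed to 405.2 to 462.1 CPM with the PD-L1 antibody, 324.4 to 541.8 with the isotype antibody and 272.2 to 522.9 untreated, most of it from Ccr7. Of these 7, 4 fell and 1 rose in each comparison with the PD-L1 antibody. Dpp4 was at 3.56 to 4.31 CPM with the PD-L1 antibody against 10.7 to 13.4 and 6.06 to 10.3, and Xcr1 at 2.84 to 3.52 against 0.551 to 0.849 and 0.390 to 0.864. Clec9a was at 0.0326 to 0.1765 CPM against 1.081 to 1.37 and 1.083 to 2.304, and Cd209a at 0.0 to 0.1365 against 1.545 to 2.026 and 0.7901 to 1.379. Clec9a and Cd209a passed the filter only through the groups without the PD-L1 antibody, so their part in these counts is no test. The 5 erythroid markers summed to 1.89 to 3.42 CPM with the PD-L1 antibody, 5.76 to 13.7 with the isotype antibody and 10.7 to 14.0 untreated, and 2 of 3 tested fell in both comparisons, the near-identical Hba-a1 and Hba-a2. The 6 T cell markers summed to 3.21 to 6.16, 5.52 to 13.8 and 11.6 to 23.1 CPM in those groups, with Cd3e, Cd3d and Cd3g at 1 CPM or less, and the 5 NK cell markers to 2.75 to 5.57, 6.27 to 8.72 and 5.10 to 9.12. The part of these cells in the results was not tested. The 4 markers of mast cells and basophils summed to 28.5 to 65.8 CPM over the 9 libraries, the 4 of fibroblasts to 20.1 to 55.2 and the 5 of B cells to 4.58 to 10.3.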

How the data were processed

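Poly(A)-selected RNA of 9 libraries was sequenced in pairs of 150-base reads, per the labels' protocols. The submitters' processing notes name Partek and STAR without versions. The genome build and the strand setting are not given in the sources used here, and transcript positions were matched to GRCm38. The deposited files list, per RefSeq transcript and library, whole-number read counts over the genomic span, average coverage (a signal per exonic base, per the file headers) and total exon length in bases (another value per the file headers).

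Coverage times exon length, divided by 150, gave exonic read equivalents. Of 35131 transcripts the one with the highest mean stood for each gene symbol. After edgeR's filterByExpr, 13743 of 22376 genes remained. They were scaled by TMM, turned into log2(CPM + 1) and fitted in limma with a trended variance, 1 mean per group and all 9 libraries. Tests were two-sided, with Benjamini-Hochberg adjustment over all tested genes and a threshold of 0.05. Reads shared with other genes were estimated from GENCODE M21 transcripts, as the share of a transcript's 50-base stretches found in another gene. Totals of 23554320 to 40116467 per library limit low genes most, and amplified reads without identifiers may copy 1 molecule. The fitting code was run on simulated data with few genes changed, in 1 group, and the same dispersion for every gene. These data differ from that setting, so the run checks the code only.

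The 46 genes and all lists were chosen with earlier results of these data known. Some pathway genes were left out of the lists and are not reported here. Values per library are given for the genes with the largest and smallest fold change and the most reads in each role group, and for those that did not pass. From each pathway list the tested genes with the lowest p, the ligands and the receptor chains are named. Stat2, Irf9, Jak1, Tyk2, Tbk1, Myd88, Tmem173, Ticam1, Ifi27 and Phf11b were added after their values were seen. Alternatives were other scalings, filters, pseudocounts, transcripts, tools (edgeR and DESeq2 on counts, limma-voom), groups in the fit, an adjusted p of 0.01 as threshold, and each library left out in turn. Versions were limma 3.58.1, DESeq2 1.42.0 and edgeR 4.0.16 under R 4.3.3, with pandas 2.3.3 in Python 3.11.15.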

Additional observations from a re-analysis of the deposited data

How the results depend on the processing

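Over 24 alternatives the number of the 46 genes higher with the PD-L1 antibody ran from 41 to 44 against the isotype antibody and from 42 to 44 against untreated wells, and none was lower in any of them. With single libraries left out the ranges were 41 to 44 and 42 to 44. Of the 44 and 43 genes called, 40 and 42 were called in every alternative. The exceptions were Helz2, Ifitm2, Rtp4 and Samd9l in the first comparison and Trim25 in the second. The median log2 fold change ran from 0.80 to 1.03 and from 0.74 to 0.96. Scaling by total counts gave the lowest of each and moved the median of all genes to -0.16 and -0.13. Between the isotype antibody and untreated wells no member was called in any alternative except without untreated 7, where 3 were higher and 2 lower, so that leaving out single libraries gave 0 to 3 higher and 0 to 2 lower; the cause was not tested. Signs turned only in genes without a call: Trim25 (-0.05) and Tyk2 (-0.10) against the isotype antibody with total counts, Tyk2 (-0.00) with edgeR on deposited counts, and Ifitm2 against untreated wells without untreated 7 (-0.07, the lowest with a library left out, up to 0.28 without untreated 9). Where a library was left out, the 2 remaining ones of its group were assumed to vary like the other groups. No paired analysis was possible because the groups share no replicate numbers.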
